A study of Mus musculus with 18 samples.

Results

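DNA repair genes were examined in the livers of mice fathered through cryopreserved spermatogonial stem cells. The 44 genes were chosen by name from the 32285 genes of the count table. They comprise 16 genes of homologous recombination and interstrand crosslink repair, 7 of end joining, 14 of excision and single-strand break repair, 2 of mismatch repair, 4 checkpoint genes and Mgmt, which reverses alkyl damage directly. Liver RNA came from 18 mice in 3 groups of 6, all labelled as wild-type B6D2F1. Space pups were 10 weeks old and descended from germline stem (GS) cells, cultured spermatogonial stem cells derived from testes of newborn DBA/2 mice, which spent 6 months frozen aboard the International Space Station. Ground pups, also 10 weeks old, came from GS cells of the same kind kept frozen on Earth for as long. In both cases the thawed cells were placed in testes of W mice, Kit mutants that make no sperm of their own, and these recipients were mated with C57BL/6 females. The donor cells carried a fluorescent reporter gene, and BDF1 wild-type mice of unstated age, born by natural mating, were the controls. The labels do not record which pups share a father.

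A cell repairs DNA by several routes. Double-strand breaks are either repaired by homologous recombination, which copies the sister chromatid and works after replication, or joined end to end, which works throughout the cell cycle. Damaged or wrong bases are cut out by base excision repair, bulky lesions by nucleotide excision repair, and replication errors by mismatch repair, while the checkpoint kinases Atm and Atr hold the cycle until the damage is dealt with. Hepatocytes divide rarely, so genes of recombination and replication-linked repair are usually weakly expressed in adult liver, whereas excision and end joining genes are expressed in resting cells.

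The libraries fell into sets by replicate number. In each group replicates 1 to 3 had between 1822 and 2482 counts of 4 Y-linked genes and at most 187 of Xist, and replicates 4 to 6 had at most 26 and at least 12218, respectively. These counts mark replicates 1 to 3 as males and replicates 4 to 6 as females. The labels do not state sex, but the paper reports that pups of both sexes were analysed. The groups were therefore compared within replicates 1 to 3 and within replicates 4 to 6, with 3 libraries per group in each. Any comparison between the sets is thus also one between females and males. Whether the sets differed in anything else was not tested. Total counts ranged from 15407450 to 20562351 per library, of which the 44 genes held between 0.0275% and 0.0455%. Albumin transcripts (Alb) made up 17.6% to 24.1% of counts in the pup libraries of replicates 4 to 6 and at most 8.03% elsewhere. Levels are given in CPM, counts per 10⁶ of a library size scaled by TMM (trimmed mean of M values) factors. These factors ran from 0.704 to 0.970 in those 6 libraries and from 1.03 to 1.17 in the other 12. Haploid germ cell transcripts, a sum of 5 genes, reached 46.3 CPM in Space replicate 6, 4.75 CPM in BDF1 replicate 3 and at most 0.645 CPM elsewhere. Space replicate 6 is a female library, with 12218 Xist counts and 0 Y-linked counts. The source of its haploid germ cell transcripts was not tested. Hepatocyte markers, 6 genes, were far above every other cell type list in all libraries, with between 58597 and 375862 CPM in sum.

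Of the 44 genes, 40 passed the filter on low counts and were tested. Rad54l, Bard1, Fancd2 and Mutyh did not, each with at least 1 library at 0 and at most 11 counts in any library. A gene was called where its Benjamini-Hochberg adjusted p over 13356 genes was under 0.05 in edgeR's quasi-likelihood test. Altogether 12 of the 44 genes were called in at least 1 comparison within a set or between the BDF1 sets: 3 in both groups of pups of replicates 4 to 6, 5 in Ground pups only, 2 in Space pups only, 1 in Space replicates 1 to 3 and within BDF1 mice, and 1 within BDF1 mice only. None was called between Space and Ground pups. Of all genes, 11.9% were called in Space pups and 15.2% in Ground pups of replicates 4 to 6 against BDF1 mice, and 14.6% within BDF1 mice. The share of all genes called in at least 1 comparison is not given here, so 12 of 44 was not set against it. Promoters are given for Rad51b, with the largest change, Xrcc5, the most stable call between pups and BDF1 mice, and Brca2, which holds an E2F match. They are the 250 bases before the RefSeq start on the plus strand (GRCm38.p6). They lie at chr12:79297032-79297281, chr1:72307171-72307420 and chr5:150522371-150522620. Capitals mark letters of a CCAAT box, written CCAAT or ATTGG, in Rad51b and Xrcc5 and of an E2F element in Brca2.
Rad51b: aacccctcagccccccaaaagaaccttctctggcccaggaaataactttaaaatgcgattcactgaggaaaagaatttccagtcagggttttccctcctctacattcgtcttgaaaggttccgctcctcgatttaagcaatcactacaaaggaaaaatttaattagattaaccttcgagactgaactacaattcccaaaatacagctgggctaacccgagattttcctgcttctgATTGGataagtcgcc
Xrcc5: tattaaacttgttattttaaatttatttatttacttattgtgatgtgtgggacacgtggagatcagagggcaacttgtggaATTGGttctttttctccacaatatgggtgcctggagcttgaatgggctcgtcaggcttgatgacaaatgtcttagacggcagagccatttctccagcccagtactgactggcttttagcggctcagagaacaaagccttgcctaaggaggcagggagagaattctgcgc
Brca2: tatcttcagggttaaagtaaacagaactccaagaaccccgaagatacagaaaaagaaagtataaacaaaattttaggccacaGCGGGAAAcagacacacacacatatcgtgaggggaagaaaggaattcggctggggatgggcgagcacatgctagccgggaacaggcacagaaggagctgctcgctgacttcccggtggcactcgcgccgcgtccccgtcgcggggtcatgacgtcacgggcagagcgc

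A RefSeq window of 300 bases, 250 before to 50 after the start, was found for 37 of the 44 genes, with 43 windows in all because some genes have more than 1 start. CCAAT on either strand was present in 24 of these 43 windows, of 21 genes, and in 37.4% of all 32851 windows. In Rad51b it began 15 bases before the start, which is 84 bases before a second RefSeq start of this gene, and in Xrcc5 169 bases before. E2F letters, written TTTCCCGC, TTTCGCGC, TTTGCCGC or TTTGGCGC on either strand, were in 7 of the 43 windows, of 6 genes, Bard1, Brca2, Chek2, Msh6, Rad51c and Xrcc6, and in 2.26% of all windows. The CHR letters TTTGAA, on either strand, were in 3 of the 43 windows, 1 each of Bard1, Ercc5 and Rad51b, and in 17.9% of all windows. These matches describe the letters of the window only.

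The level per kilobase of merged exon spanned a wide range. Apex1, the main endonuclease at abasic sites, was highest with 13.7 CPM per kilobase, followed by Xrcc5 with 7.63, Parp1 with 7.35, Nbn with 6.63 and Mgmt with 6.61. Xpa and Ercc3 of nucleotide excision repair came next, with 6.40 and 6.15. The neighbours Nbn, Mgmt and Xpa were closer to each other than the range of each over the libraries. Among the lowest were several recombination genes, Brca1 with 0.161 CPM per kilobase, Brca2 with 0.152, Palb2 with 0.0891, Fanca with 0.0420, Bard1 with 0.0414, Fancd2 with 0.0290 and Rad54l with 0.0240. The excision gene Mutyh, at 0.0779, and the checkpoint gene Chek1, at 0.122, lay in the same range.

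**Figure D1:**
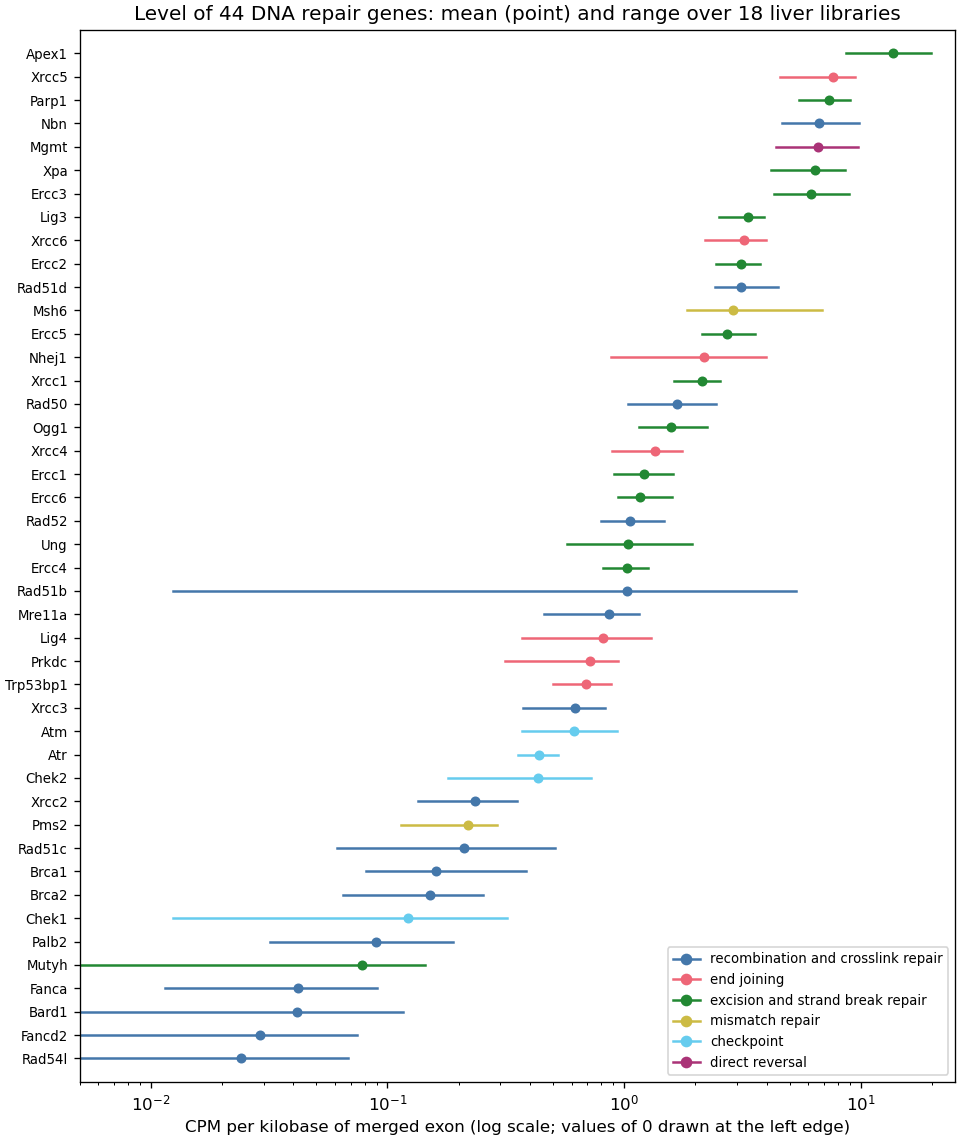
Level of each of the 44 DNA repair genes in CPM per kilobase of merged exon on a log axis, as the mean (point) and the range (line) over 18 libraries, coloured by role. Apex1 stands highest at 13.7 and Rad54l lowest at 0.0240, and the line of Rad51b is the longest among the tested genes.

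The first question was whether liver expression of these genes differed between pups and BDF1 mice. In replicates 4 to 6, 5 of 40 genes passed in the comparison of Space pups and BDF1 mice, where 11.9% of all genes were called. Of these, 3 were higher (6.43% of all genes) and 2 lower (5.49%). In Ground pups 8 of 40 were called against 15.2% of all genes. Here 2 were higher (7.86% of all genes) and 6 lower (7.35%). The libraries of Space pups and BDF1 mice did not overlap for 13 of 40 genes, against 31.5% of all genes, and those of Ground pups and BDF1 mice for 19, against 30.0%. Both comparisons used the same BDF1 libraries. The median log2 change over the 40 genes was -0.03 in Space pups and 0.09 in Ground pups, and over all genes 0.01 in both. With scaling by total counts instead of TMM factors, 17 genes were called in each comparison, 1 of 17 higher, and the median of all genes moved to -0.39 and -0.46. Without BDF1 replicate 5 the counts were 0 in Space pups and 4 in Ground pups. With replicates 4 to 6 fitted alone edgeR called 1 of the 40 in Space pups, Rad51b, and 3 in Ground pups, Rad51b, Nbn and Xrcc5. The share of all genes called in these alternative fits is not given here, so their counts are not a result about the 40 genes alone.

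Fewer genes were called in replicates 1 to 3. In Space pups 1 of 40 genes was called against BDF1 mice, where 4.64% of all genes were called. In Ground pups none was called by edgeR, 1 by DESeq2 and none by limma voom, where edgeR called 1.92% of all genes. At an unadjusted p under 0.05 there were 7 of the 40 and 2128 of all 13356 genes in Ground pups. Libraries did not overlap for 8 genes in Space pups (35.2% of all genes) and for 10 in Ground pups (23.9%). Whether the pup and control difference itself differed between the sets was also tested. None of the 40 genes was called for Space pups, where 3.19% of all genes were called, or for Ground pups, where 2.74% were. At an unadjusted p under 0.05 there were 5 of the 40 and 2541 of all 13356 genes for Space pups. For Ground pups there were 7 of the 40 and 2317 of all genes. DESeq2 called 1 gene in each of these tests and limma voom none.

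Both sets were also put in 1 fit with the set as a term, which gives n = 6 per group and assumes the same change in both sets. In this fit edgeR called 3 of the 40 genes in Space pups against BDF1 mice (10.0% of all genes) and 5 in Ground pups (11.1%). In Space pups these were Nbn at a log2 change of 0.36 (adjusted p = 0.0311, edgeR), Ercc3 at -0.35 (adjusted p = 0.0210, edgeR) and Atm at -0.54 (adjusted p = 0.0461, edgeR). In Ground pups they were Nbn at 0.39 (adjusted p = 0.0211, edgeR), Ercc3 at -0.35 (adjusted p = 0.0201, edgeR), Xrcc4 at -0.47 (adjusted p = 0.0244, edgeR), Xrcc5 and Apex1. Other calls made within a set were lost here. Rad51d in Space pups came to -0.22 (adjusted p = 0.251, edgeR), Ercc6 to 0.22 (adjusted p = 0.158, edgeR) and Parp1 to -0.26 (adjusted p = 0.0701, edgeR), and Ercc2 in Ground pups to -0.13 (adjusted p = 0.388, edgeR).

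**Figure D2:**
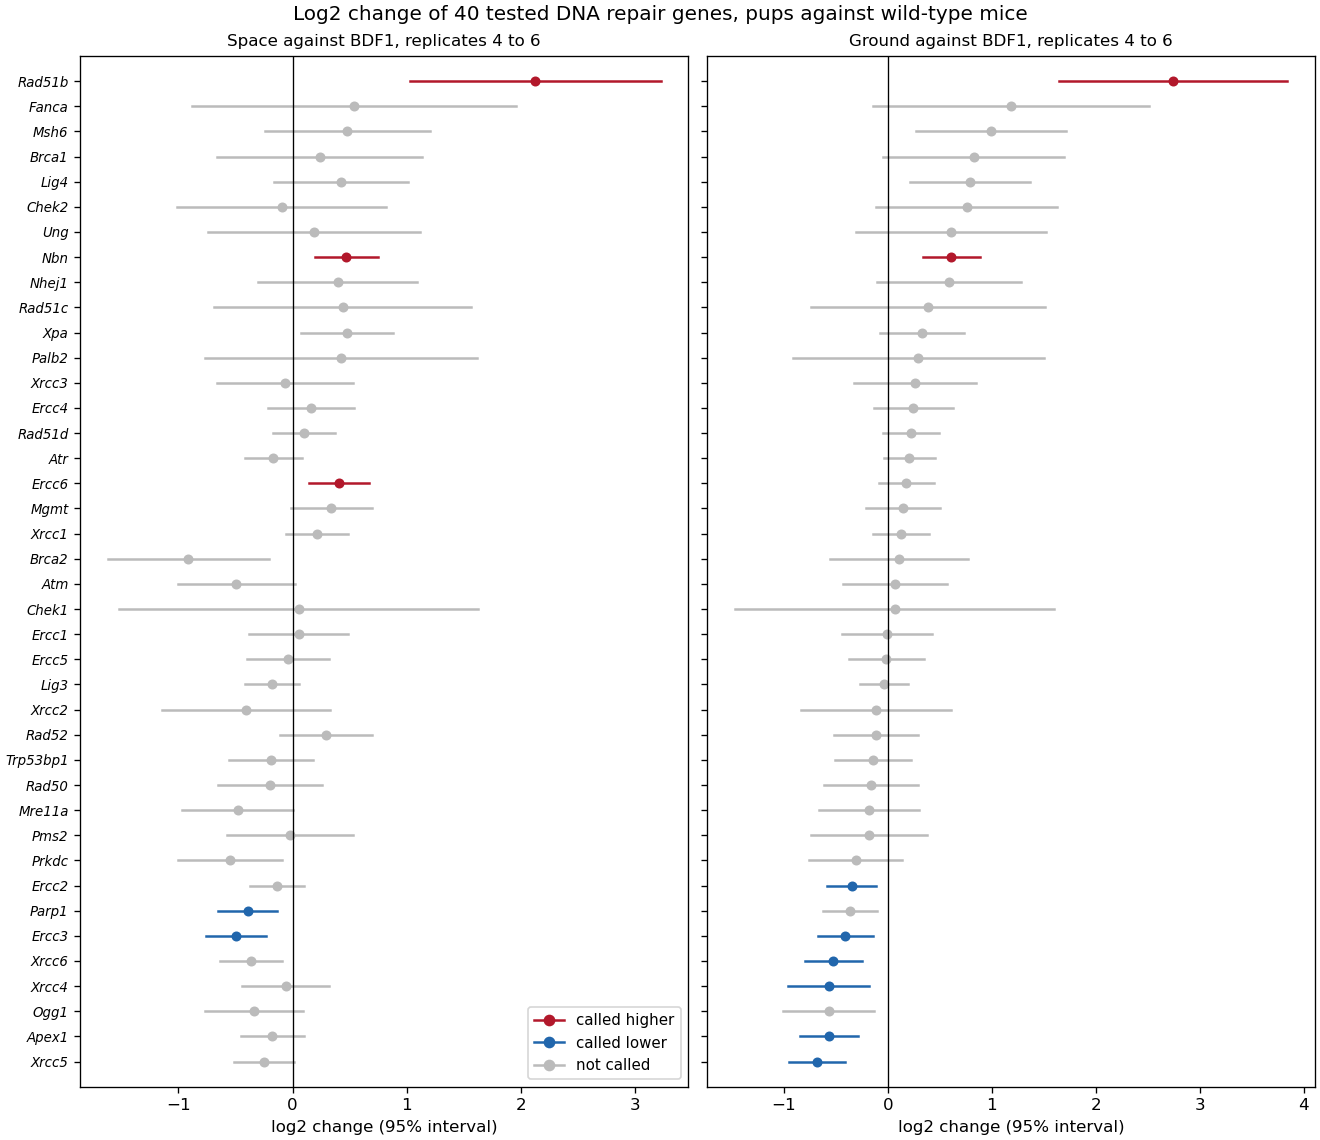
Log2 change of the 40 tested genes in replicates 4 to 6, Space pups (left) and Ground pups (right) against BDF1 mice, n = 3 per group; points are estimates, lines 95% intervals, and colour marks called genes. Rad51b lies farthest to the right in both panels, at 2.13 and 2.74, and Xrcc5 is lowest in Ground pups at -0.68.

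Recombination genes held the largest change. Rad51b takes part in the early steps of homologous recombination. In replicates 4 to 6 it measured 10.4, 7.16 and 6.30 CPM in Space pups, 6.24, 10.4 and 19.96 CPM in Ground pups, and 2.12, 1.12 and 2.22 CPM in BDF1 mice. Every pup library lay above every BDF1 library, and Ground replicate 6 was the highest of all 18. The log2 change was 2.13 (SE 0.517, adjusted p = 0.0159, edgeR) in Space pups and 2.74 (SE 0.519, adjusted p = 0.00270, edgeR) in Ground pups. It was low everywhere in replicates 1 to 3, with 0.647, 0.189 and 0.323 CPM in Space pups, 0.341, 0.633 and 0.104 in Ground pups and 0.0468, 0.823 and 0.783 in BDF1 mice. The last group's lowest value was a single count, and the groups overlapped. The difference between the sets was 2.59 (SE 0.946, adjusted p = 0.143, edgeR) for Space pups and 3.32 (SE 0.940, adjusted p = 0.0710, edgeR) for Ground pups, so neither was called. The call in Space pups was lost without Space replicate 4 (1.89, adjusted p = 0.0521, edgeR) or BDF1 replicate 5 (1.86, adjusted p = 0.0798, edgeR). The call in Ground pups held without any single library but was lost without Space replicate 4 and Ground replicates 5 and 6 together, the libraries with the highest Msh6 level (1.79, adjusted p = 0.0853, edgeR). That fit was chosen after seeing the data and leaves Ground replicate 4 alone in its group, assumed to vary like the other groups. Neither call was made with both sets in 1 fit and n = 6 per group, at 1.27 (SE 0.600, adjusted p = 0.184, edgeR) in Space pups and 1.70 (SE 0.591, adjusted p = 0.0700, edgeR) in Ground pups. The gene shares no exon base with another gene in GENCODE M21, which places it at chr12:79297282-79814690.

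Nbn, which encodes the NBS1 subunit of the MRE11-RAD50-NBS1 break sensor, also rose in both groups of pups. It measured 17.6, 19.6 and 18.0 CPM in Space replicates 4 to 6, 19.3, 16.6 and 24.9 in the Ground replicates and 13.3, 11.8 and 14.8 in the BDF1 replicates. No pup library was as low as a BDF1 library. The log2 change was 0.47 (SE 0.130, adjusted p = 0.0279, edgeR) in Space pups and 0.61 (SE 0.129, adjusted p = 0.00551, edgeR) in Ground pups. With scaling by total counts it was 0.08 and 0.13 and neither was called. Omitting Space replicate 4 or 5 or BDF1 replicate 4 or 5 ended the call in Space pups, at log2 changes from 0.39 to 0.50, as did no filter on low counts (0.45, adjusted p = 0.0550, edgeR) and replicates 4 to 6 fitted alone (0.46, adjusted p = 0.119, edgeR). In replicates 1 to 3 the libraries did not overlap either, with 16.5, 17.8 and 18.4 CPM in Space pups, 16.4, 15.2 and 17.9 in Ground pups and 14.8, 14.9 and 14.2 in BDF1 mice, but the adjusted p was 0.280 and 0.549 in edgeR. The partner Rad50, a structural ATPase of the same complex, went the other way in replicates 1 to 3: 5.71, 5.60 and 9.19 CPM in Space pups, 6.97, 5.91 and 6.30 in Ground pups and 10.3, 10.5 and 9.77 in BDF1 mice. All pup libraries lay below the BDF1 libraries, with log2 changes of -0.57 (adjusted p = 0.151, edgeR) and -0.67 (adjusted p = 0.125, edgeR) that did not pass.

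Rad51d, another gene of homologous recombination, was the only gene of the 40 called in replicates 1 to 3. Space pups had 9.003, 11.1 and 10.9 CPM, Ground pups 12.3, 10.7 and 12.6 CPM, and BDF1 mice 16.6, 14.0 and 13.6 CPM. The log2 change was -0.51 (SE 0.127, adjusted p = 0.0308, edgeR) in Space pups and -0.31 (SE 0.126, adjusted p = 0.225, edgeR) in Ground pups. Leaving out any one of Space replicates 1 to 3 or BDF1 replicates 1 to 3 ended the call, with log2 changes from -0.57 to -0.41, and so did no filter on low counts (adjusted p = 0.0511, edgeR). Among cell type markers in this comparison 1 of 4 of stellate cells was higher and 1 of 4 of cholangiocytes lower in Space pups, and their part in the Rad51d level was not tested. In replicates 4 to 6 the level of BDF1 mice was 10.1, 9.13 and 10.9 CPM, close to the 11.3, 11.3 and 9.77 CPM of Space pups and the 12.02, 12.8 and 10.4 CPM of Ground pups. Within BDF1 mice alone, replicates 4 to 6 were lower than replicates 1 to 3 by a log2 change of -0.55 (SE 0.126, adjusted p = 0.00769, edgeR), where 14.6% of all genes and 2 of the 40 were called. The 3 BDF1 libraries of replicates 1 to 3 had the highest Rad51d levels of the series.

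Brca2, a breast cancer gene that mediates homologous recombination, measured 2.34, 0.963 and 1.39 CPM in Space replicates 4 to 6. Ground pups had 2.92, 3.03 and 3.45 CPM and BDF1 mice 2.86, 2.78 and 3.07 CPM. The Space libraries lay below both, with log2 changes of -1.02 (SE 0.336, adjusted p = 0.220, edgeR) against Ground pups and -0.91 (SE 0.332, adjusted p = 0.0802, edgeR) against BDF1 mice that did not pass. In replicates 1 to 3 it had 1.53, 0.881 and 2.31 CPM in Space pups, 1.07, 1.16 and 1.41 CPM in Ground pups and 1.40, 2.14 and 2.56 CPM in BDF1 mice. There Space and Ground libraries overlapped, with a log2 change of 0.39 (SE 0.347, adjusted p = 0.762, edgeR). The difference between the sets for Space against Ground pups was -1.41 (SE 0.483, adjusted p = 0.534, edgeR). The other recombination genes tested were not called in any comparison.

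**Figure D3:**
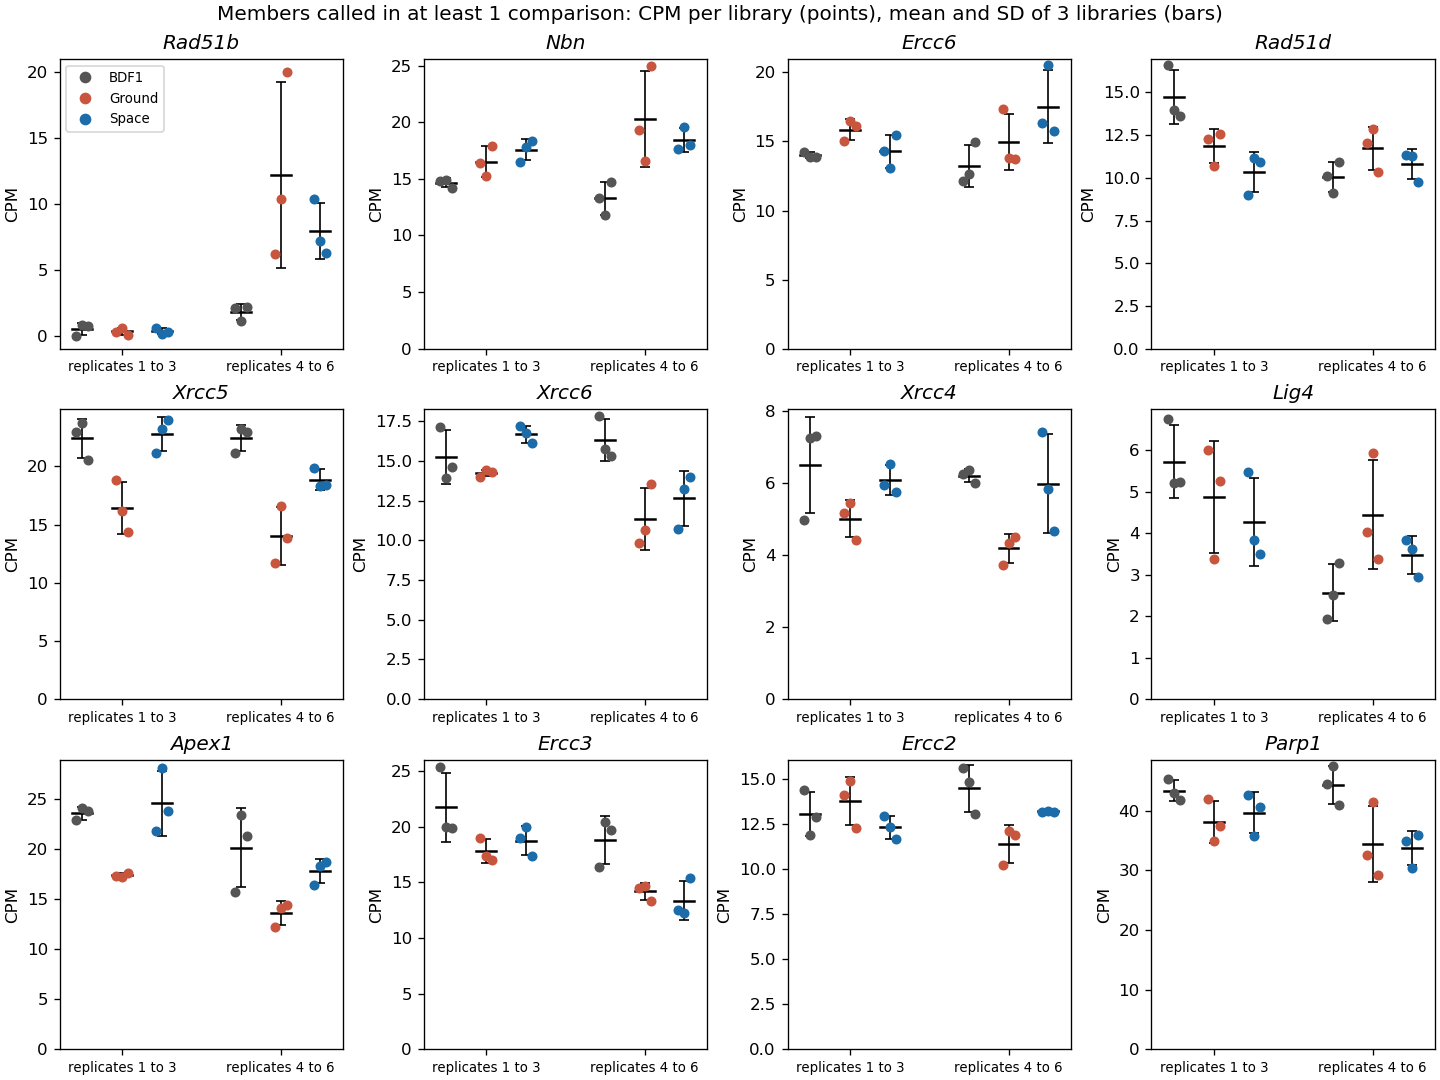
CPM per library (points) of the 12 genes called in at least 1 comparison within a set or between the BDF1 sets, with mean and SD of 3 libraries, for BDF1 (grey), Ground (red) and Space (blue) in each set of replicates. Rad51b is at most 0.823 CPM in all libraries of replicates 1 to 3 and at least 6.24 CPM in the pups of replicates 4 to 6; Xrcc5 and Apex1 are lower in Ground pups than in Space pups in both sets.

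End joining genes held the most stable call between pups and BDF1 mice. Xrcc5 and Xrcc6 encode Ku80 and Ku70, the ring that binds broken ends, and Xrcc4 holds the ligase Lig4 in place. Of the 7 genes, all tested, 3 were lower in Ground replicates 4 to 6, where 7.35% of all genes were lower, and none was called in Space pups, where 11.9% of all genes were called. The role itself was not tested. Xrcc5 had 11.7, 16.6 and 13.8 CPM in Ground pups, 19.9, 18.3 and 18.4 in Space pups and 21.1, 23.2 and 23.0 in BDF1 mice. The 3 groups were ordered without overlap, Ground lowest and BDF1 highest. The log2 change was -0.68 (SE 0.125, adjusted p = 0.00244, edgeR) in Ground pups and -0.25 (SE 0.124, adjusted p = 0.188, edgeR) in Space pups. The call in Ground pups held in every alternative fit tried, with adjusted p of at most 0.0194. In replicates 1 to 3 Ground pups had 18.8, 16.1 and 14.3 CPM, below the 23.0, 23.7 and 20.5 of BDF1 mice and the 21.2, 23.2 and 24.0 of Space pups. There the log2 change against BDF1 mice was -0.45 (SE 0.124, adjusted p = 0.0744, edgeR). With both sets in 1 fit and the set as a term, so that n = 6 per group, it was -0.56 (SE 0.0916, adjusted p = 0.00171, edgeR).

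Xrcc6 measured 9.80, 10.7 and 13.5 CPM in Ground replicates 4 to 6, 10.7, 13.2 and 14.0 in the Space replicates and 17.8, 15.8 and 15.3 in the BDF1 replicates. All 6 pup libraries lay below BDF1. The log2 change was -0.53 (SE 0.130, adjusted p = 0.0124, edgeR) in Ground pups and -0.36 (SE 0.129, adjusted p = 0.0739, edgeR) in Space pups. The call was lost without BDF1 replicate 4, at -0.46 (adjusted p = 0.0543, edgeR), and with replicates 4 to 6 fitted alone, at -0.52 (adjusted p = 0.0728, edgeR). With both sets in 1 fit and n = 6 per group it was -0.32 (SE 0.108, adjusted p = 0.0653, edgeR). Its levels in replicates 1 to 3 overlapped between Ground pups (14.0, 14.4 and 14.3 CPM) and BDF1 mice (17.1, 13.9 and 14.6 CPM), and Space pups had 17.2, 16.7 and 16.1 CPM. Xrcc6 shares 344 exon bases with Desi1 on the opposite strand.

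Xrcc4 had 3.73, 4.34 and 4.49 CPM in Ground replicates 4 to 6 against 6.25, 6.36 and 6.00 CPM in BDF1 mice. In Space pups it measured 7.42, 5.84 and 4.68 CPM. Only the Ground libraries lay apart from BDF1, by a log2 change of -0.57 (SE 0.184, adjusted p = 0.0465, edgeR). This call was close to the threshold and was lost in 14 of 18 fits that left out 1 library, with log2 changes from -0.62 to -0.49. Limma voom did not make this call. Space pups had 5.94, 6.54 and 5.75 CPM in replicates 1 to 3, Ground pups 5.17, 5.43 and 4.43 CPM and BDF1 mice 4.96, 7.25 and 7.31 CPM. Lig4, which seals the ends, was called within BDF1 mice only. It measured 1.92, 2.51 and 3.28 CPM in replicates 4 to 6 and 6.74, 5.22 and 5.22 CPM in replicates 1 to 3, a log2 change of -1.16 (SE 0.268, adjusted p = 0.00844, edgeR). In pups of replicates 4 to 6 it had 3.83, 3.61 and 2.95 CPM in the Space group and 4.03, 5.92 and 3.38 CPM in the Ground group, with adjusted p = 0.324 and 0.0605 against BDF1 mice in edgeR.

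Of 13 excision genes tested, 1 was higher and 2 were lower in Space replicates 4 to 6, where 6.43% of all genes were higher and 5.49% lower. In the Ground replicates 3 were lower, where 7.35% of all genes were. Both rest on a few genes, and the role itself was not tested. Apex1 measured 12.3, 14.1 and 14.4 CPM in Ground pups, 16.4, 18.3 and 18.7 in Space pups and 15.8, 23.4 and 21.3 in BDF1 mice. The Ground libraries were below all others of the set. The log2 change against BDF1 mice was -0.57 (SE 0.132, adjusted p = 0.00916, edgeR) in Ground pups and -0.18 (SE 0.130, adjusted p = 0.387, edgeR) in Space pups. Without BDF1 replicate 5 the former was -0.44 (adjusted p = 0.0583, edgeR), and with replicates 4 to 6 fitted alone -0.57 (adjusted p = 0.0546, edgeR). In replicates 1 to 3 Ground pups had 17.3, 17.2 and 17.6 CPM, below the 22.9, 24.0 and 23.8 of BDF1 mice and the 21.8, 28.1 and 23.8 of Space pups, a log2 change against BDF1 mice of -0.44 (SE 0.129, adjusted p = 0.0930, edgeR). With both sets in 1 fit and n = 6 per group it was -0.50 (SE 0.0927, adjusted p = 0.00335, edgeR). Apex1 shares 877 of its 1422 exon bases with Pip4p1 on the opposite strand, so its level may include reads of that gene if the counting ignored strand.

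Ercc3, a helicase of the TFIIH complex that opens DNA at a lesion and at promoters, fell in both groups of pups. It had 12.5, 12.2 and 15.4 CPM in Space replicates 4 to 6, 14.5, 14.7 and 13.3 in the Ground replicates and 16.3, 20.4 and 19.7 in the BDF1 replicates. No pup library reached a BDF1 library. The log2 changes were -0.49 (SE 0.125, adjusted p = 0.0194, edgeR) and -0.41 (SE 0.125, adjusted p = 0.0358, edgeR). Leaving out 1 library ended the call in Space pups for Space replicates 4 and 5 and BDF1 replicates 5 and 6, at -0.46 to -0.43. In Ground pups it ended for Space replicate 2, Ground replicates 4, 5 and 6 and BDF1 replicates 5 and 6, at -0.43 to -0.33. Neither was called with replicates 4 to 6 fitted alone, at -0.50 (adjusted p = 0.0707, edgeR) in Space pups and -0.41 (adjusted p = 0.102, edgeR) in Ground pups, and without a filter on low counts the latter was -0.43 (adjusted p = 0.0514, edgeR). A block term for replicate number ended the call in Ground pups too. In replicates 1 to 3 Ercc3 had 18.9, 19.9 and 17.4 CPM in Space pups, 19.0, 17.4 and 16.985 in Ground pups and 25.3, 19.98 and 19.9 in BDF1 mice, with adjusted p = 0.362 and 0.258 in edgeR. Ercc2, the other TFIIH helicase, had 10.2, 12.1 and 11.9 CPM in Ground replicates 4 to 6 and 15.6, 14.8 and 13.1 in BDF1 mice, with 13.2 CPM in each Space library. The log2 change in Ground pups was -0.35 (SE 0.111, adjusted p = 0.0447, edgeR), and 13 of 18 fits without 1 library lost the call, at -0.42 to -0.27. The call was also lost with limma voom, without a filter on low counts, with a block term for replicate number and with replicates 4 to 6 fitted alone. Ercc2 shares exon bases with Klc3 and Gm26852 on the opposite strand.

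Parp1, which marks strand breaks with poly(ADP-ribose), was lower in Space replicates 4 to 6. The Space libraries measured 35.0, 30.4 and 35.8 CPM and the BDF1 libraries 44.5, 47.5 and 41.0, a log2 change of -0.39 (SE 0.124, adjusted p = 0.0485, edgeR). Ground pups, at 32.5, 41.5 and 29.1 CPM, overlapped BDF1 mice and had a log2 change of -0.37 (SE 0.123, adjusted p = 0.0547, edgeR). These values are nearly alike, one on each side of the threshold, and the difference between Space and Ground pups was -0.03 (SE 0.124, adjusted p = 0.952, edgeR). Without 1 library, 14 of 18 fits lost the call in Space pups, at -0.45 to -0.32. Ercc6, which encodes the transcription-coupled repair factor CSB, measured 16.3, 20.5 and 15.7 CPM in Space replicates 4 to 6, 17.3, 13.8 and 13.7 in the Ground replicates and 12.1, 12.7 and 14.97 in the BDF1 replicates. Its log2 change in Space pups was 0.40 (SE 0.125, adjusted p = 0.0459, edgeR). With total counts it was 0.01, and 12 of 18 fits without 1 library lost the call, at 0.27 to 0.50. Xrcc1, the scaffold of single-strand break repair, had 12.9, 14.9 and 14.2 CPM in Space replicates 1 to 3 and 12.6, 14.6 and 14.1 in the Ground replicates, all above the 11.1, 10.2 and 11.6 CPM of BDF1 mice, with adjusted p = 0.134 and 0.211 in edgeR.

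The remaining roles held no called gene in the comparisons within a set. Msh6, which recognises mismatched bases, measured 23.3, 8.01 and 9.88 CPM in Space replicates 4 to 6, 10.97, 29.8 and 17.5 in the Ground replicates and 10.8, 10.2 and 8.17 in the BDF1 replicates. Space replicate 4 and Ground replicates 5 and 6 stood above all other libraries. The log2 change was 0.48 (SE 0.342, adjusted p = 0.373, edgeR) in Space pups and 0.99 (SE 0.339, adjusted p = 0.0582, edgeR) in Ground pups. Ung, the uracil glycosylase of base excision repair, was high in the same libraries, at 10.6, 10.1 and 9.74 CPM, as was Brca1, at 3.04, 3.29 and 2.14 CPM. BDF1 replicate 3 had 9.66 CPM of Ung as well. Atr, the kinase that answers stalled forks, had 10.1, 8.43 and 9.65 CPM in Space replicates 4 to 6, below the 12.4, 12.4 and 11.7 CPM of Ground pups. That log2 change was -0.37 (SE 0.118, adjusted p = 0.206, edgeR). In replicates 1 to 3 the 11.2, 8.56 and 9.78 CPM of Space pups overlapped the 9.02, 10.02 and 9.69 CPM of Ground pups, a log2 change of 0.04 (SE 0.117, adjusted p = 0.942, edgeR). The difference between the sets was -0.41 (SE 0.166, adjusted p = 0.601, edgeR). Mgmt was not called, with a log2 change in replicates 4 to 6 of 0.34 in Space pups and 0.15 in Ground pups.

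Atm, the kinase that answers double-strand breaks, had 4.94, 4.78 and 5.11 CPM in Space replicates 1 to 3 and 3.83, 5.42 and 5.49 in Space replicates 4 to 6. BDF1 mice had 8.29, 7.91 and 6.01 CPM and 7.33, 7.88 and 5.59 CPM in these sets, and Ground pups 7.46, 4.48 and 7.82 CPM and 9.63, 5.33 and 6.84 CPM. Every Space library lay below every BDF1 library of its set, and Ground libraries overlapped BDF1 in both. The log2 change in Space pups was -0.58 (SE 0.240, adjusted p = 0.191, edgeR) in replicates 1 to 3 and -0.49 (SE 0.242, adjusted p = 0.189, edgeR) in replicates 4 to 6, and neither passed. With both sets in 1 fit and n = 6 per group it was -0.54 (SE 0.165, adjusted p = 0.0461, edgeR) against BDF1 mice, which passed, and -0.49 (SE 0.166, adjusted p = 0.225, edgeR) against Ground pups, which did not.

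Markers of dividing cells were higher in pups of replicates 4 to 6. The sum of 12 such genes, among them Mki67 and Top2a, was 76.6, 10.5 and 24.3 CPM in Space replicates 4 to 6, 47.7, 32.0 and 24.6 in the Ground replicates and at most 7.75 CPM in the other 12 libraries. Of 11 tested, 10 were higher in Space pups and 9 in Ground pups of replicates 4 to 6, and none was called in replicates 1 to 3 or between the sets of BDF1 mice. No marker was at 0 in every library. Msh6, Ung and Brca1 were high in Space replicate 4, which had the highest marker sum. Ground replicate 4, which had the second, measured 10.97, 3.27 and 1.63 CPM of these genes, and its Brca1 level was above every BDF1 library. Erythroid markers, 4 genes in sum, were at 53.7 to 243 CPM in the same pups and at 18.3 to 41.4 CPM in BDF1 replicates 4 to 6, and 1 of 2 tested was higher in each group of pups of replicates 4 to 6. Their sums in pups and BDF1 mice did not overlap in replicates 1 to 3 either, at 206 to 245 CPM in Space pups, 210.4 to 265 CPM in Ground pups and 123 to 188 CPM in BDF1 mice, but none was called. One of the 4 endothelial markers was higher there in Ground pups. In replicates 4 to 6, 2 of the 6 hepatocyte markers were higher and 1 lower in each group of pups. In Space pups of replicates 4 to 6, 1 of 5 Kupffer cell markers was also higher and 1 of 4 stellate cell markers lower. In Ground pups of replicates 4 to 6, 1 of 4 endothelial markers was higher and 1 of 4 cholangiocyte markers lower. The endothelial sum of Ground pups, 77.8 to 86.2 CPM, lay above the 37.9 to 71.3 CPM of BDF1 mice, and the cholangiocyte sum, 11.8 to 18.6 CPM, below their 21.4 to 23.97 CPM. Sums of B and plasma cell markers were at most 4.67 CPM in this set and those of T cell markers at most 2.87 CPM, and no marker of either was called. The part of dividing, erythroid or other cells in these results was not tested, and in whole liver more cells of a type and more RNA per cell cannot be told apart.

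**Figure D4:**
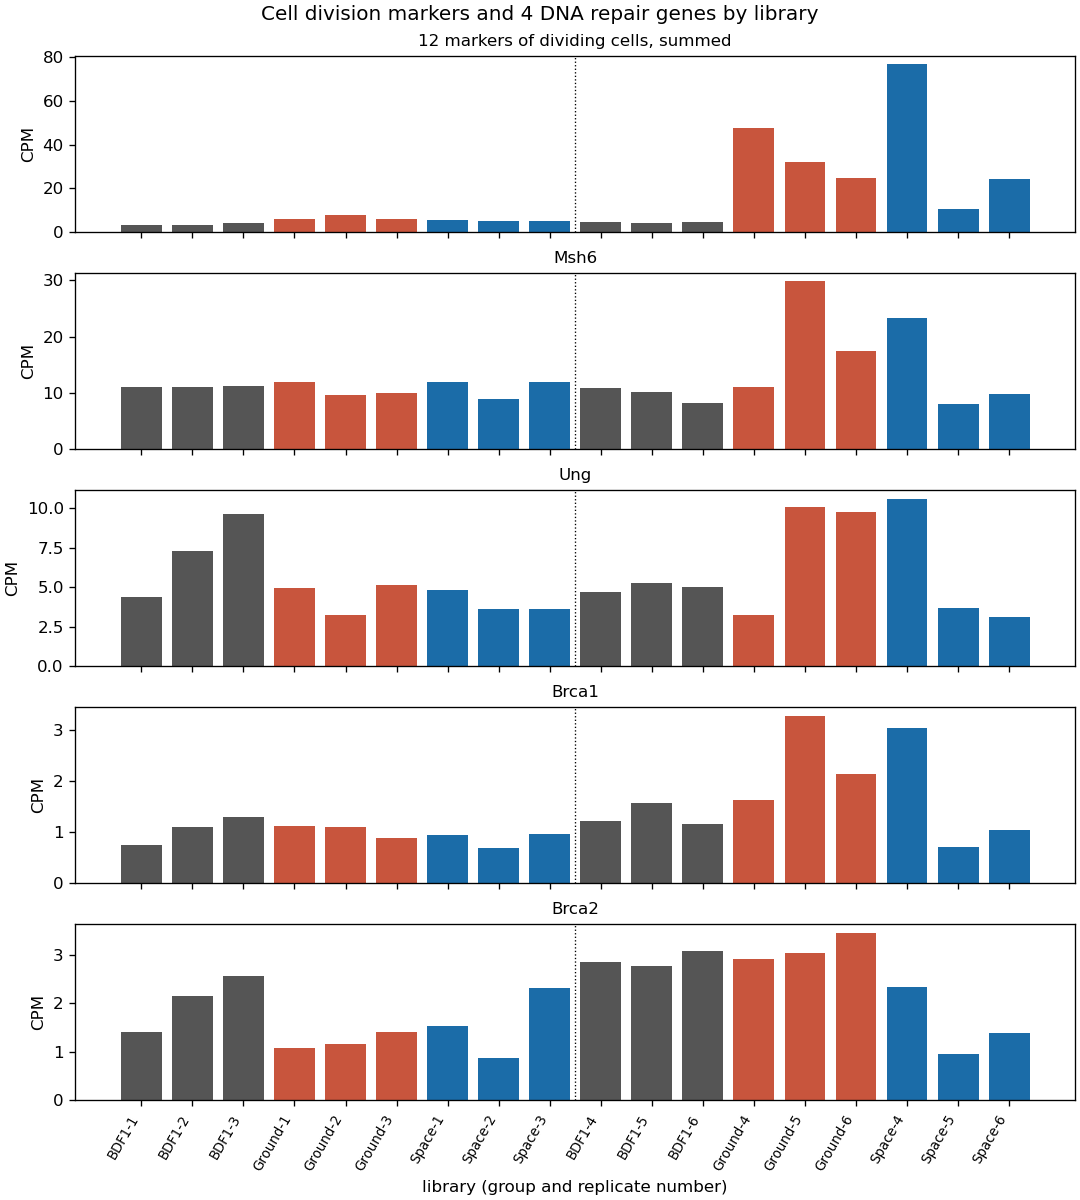
CPM per library of 12 markers of dividing cells in sum and of Msh6, Ung, Brca1 and Brca2, for BDF1 (grey), Ground (red) and Space (blue), with replicates 1 to 3 left and 4 to 6 right of the dotted line. The marker sum reaches 76.6 in Space replicate 4, and Msh6, Ung and Brca1 are high in Space replicate 4 and Ground replicates 5 and 6; in Ground replicate 4 they are at 10.97, 3.27 and 1.63 CPM.

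The second question, whether the site of storage mattered, was addressed by comparing Space with Ground pups. No gene of the 40 was called in replicates 1 to 3, where 0.00749% of all genes were called, or in replicates 4 to 6, where 0.0225% were. DESeq2 and limma voom called none of the 40 either. At an unadjusted p under 0.05 there were 2 of the 40 and 1292 of all 13356 genes in replicates 1 to 3. In replicates 4 to 6 there were 6 of the 40 and 1852 of all genes. Libraries did not overlap for 6 genes in replicates 1 to 3 (16.6% of all genes) and 8 in replicates 4 to 6 (13.7%). The difference between the sets was called for none of the 40 and for 0% of all genes. At an unadjusted p under 0.05 there were 4 of the 40 and 1038 of all 13356 genes in that test. Xrcc5 and Apex1 had the smallest p in replicates 1 to 3. Every Space library lay above every Ground library of its set for both genes, in both sets, and the same held for Xrcc4. The share of all genes separated the same way in both sets is not given here, so these genes were not set against it. The sum of 4 endothelial markers separated the same groups in the other direction, at 40.7 to 43.7 CPM in Space pups and 49.8 to 78.4 CPM in Ground pups of replicates 1 to 3 and at 46.2 to 58.4 and 77.8 to 86.2 CPM in replicates 4 to 6. Other lists separated Space from Ground pups in 1 set only. Hepatocyte and stellate cell sums were higher in Space pups of replicates 1 to 3, and cholangiocyte sums in those of replicates 4 to 6. Dividing cell sums were lower in Space pups of replicates 1 to 3, and T cell sums in those of replicates 4 to 6. No marker of these lists was called between Space and Ground pups. The part of these cell types in the levels of Xrcc5, Apex1 and Xrcc4 was not tested. The log2 change of Xrcc5 was 0.47 (95% interval 0.21 to 0.74, adjusted p = 0.266, edgeR) in replicates 1 to 3 and 0.43 (0.16 to 0.70, adjusted p = 0.198, edgeR) in replicates 4 to 6. For Apex1 it was 0.50 (0.23 to 0.77, adjusted p = 0.266, edgeR) and 0.39 (0.11 to 0.67, adjusted p = 0.227, edgeR). With both sets in 1 fit and n = 6 per group, both had an adjusted p of 0.112 in edgeR, where 0% of all genes and none of the 40 were called. The log2 change of Xrcc4 was 0.28 (-0.10 to 0.66, adjusted p = 0.659, edgeR) in replicates 1 to 3, 0.51 (0.11 to 0.90, adjusted p = 0.254, edgeR) in replicates 4 to 6 and 0.39 (SE 0.127, adjusted p = 0.219, edgeR) with both sets in 1 fit. Xrcc6 had the third smallest p in replicates 1 to 3, at 0.23 (adjusted p = 0.582, edgeR). These comparisons and those of Ground pups with BDF1 mice share the Ground libraries. The median SE of a log2 change over the members and comparisons within a set was 0.206.

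A further 73 DNA repair genes, a list written beside the 44, were counted for comparison, of which 67 were tested. In Space replicates 4 to 6 against BDF1 mice 1 rose and 3 fell: Rad9a, a checkpoint clamp subunit, at 0.83 and Pms1 at -1.05, Wrn at -0.53 and Rif1 at -0.52. These are 4 of 67 genes, where 11.9% of all genes were called. In Ground pups, where 15.2% of all genes were called, 5 of the 67 fell and none rose, among them Parp3 at -0.47, Wrn at -0.48 and Alkbh3 at -0.52. Wrn, a helicase of the RecQ family, was the only one called in both comparisons. Within BDF1 mice, where 14.6% of all genes were called, 5 were lower in replicates 4 to 6 than in replicates 1 to 3, among them Polb, the gap-filling polymerase of base excision repair, at -0.56, and Tdp2 was higher at 0.72. None of the 67 was called in replicates 1 to 3 or between Space and Ground pups.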

How the data were processed

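Liver RNA of 18 mice was measured, 3 groups of 6, with groups and replicate numbers from the labels. Per the labels, the authors used a stranded mRNA kit, and the study's methods describe single reads. The submitters' processing notes name bcl2fastq 2.20, cutadapt 4.6, HISAT2 2.2.1, HTSeq 2.0.2 and mm10. The strand setting and the treatment of reads shared by genes are not given in the sources used here, so levels of genes that overlap another gene are uncertain. What the authors deposited is a table of raw counts by gene, not normalized.

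After filterByExpr and TMM scaling, genes were fitted with edgeR 4.0.16 (R 4.3.3), a quasi-likelihood model with 1 mean for each group in replicates 1 to 3 and in replicates 4 to 6 over all 18 libraries. Three-library contrasts share 1 estimate of spread, and p-values were adjusted over 13356 genes. SE was derived from the log2 change and its F statistic. CPM uses TMM-scaled library sizes. A count of 0 allows up to 3 counts, 0.134 to 0.234 CPM by library, for counting error only. Nothing in the labels states litter or father, so p-values measure the spread between these libraries and take no account of shared fathers. The members, lists and comparisons were chosen with earlier results of these data known. Values are given for called genes and, where fewer than 3 were called within a set, for the 3 of smallest p; Msh6, Ung, Brca1, Mgmt, Atm and Lig4 in pups were chosen after their values were seen. Exon lengths and overlaps come from GENCODE M21, which holds 32235 of the 32285 identifiers. Within groups, pairs of libraries differed by a chi-square of at least 9.73 a gene, where sampling noise alone gives 1, so none was a duplicate. The scripts were tested on simulated data. Some genes of the further list of repair genes are not reported here by name. Alternatives were DESeq2 1.42.0, limma voom (limma 3.58.1), other scalings and filters, other models, a replicate block and leaving out each library. Leaving out the 3 libraries with the highest Msh6 level was added after seeing the data.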

Additional observations from a re-analysis of the deposited data

Results flagged for a closer look

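Within each group of 6 libraries, the gap of the highest or lowest library to its neighbour was set against the range of the group for each of the 40 tested genes. In 7 of 120 groups the share exceeded Dixon's 95% critical value for 6 samples, where chance gives about 1 in 20, or 6, for libraries that can be exchanged. Each group here spans both sets of replicates, which differ in many genes, so that number is only a rough guide. Space replicate 4 stood high for 3 genes. Its Brca1 level of 3.04 CPM was next to 1.04 CPM, a gap of 0.852 of the range. Its Ung level was 10.6 CPM next to 4.83 CPM, a gap of 0.773, and its Msh6 level 23.3 CPM next to 12.004 CPM, a gap of 0.738. Lig4 was high in Space replicate 1, at 5.47 CPM next to 3.84 CPM, a gap of 0.647. Chek1, the kinase below Atr, was high in Ground replicate 2, at 1.48 CPM next to 0.461 CPM, a gap of 0.835. Among BDF1 mice Apex1 was low in replicate 4, at 15.8 CPM next to 21.3 CPM, a gap of 0.665, and Msh6 was low in replicate 6, at 8.17 CPM next to 10.2 CPM, a gap of 0.667.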

How the results depend on the processing

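The number of the 40 genes called was recomputed under each alternative, and of 287 counts 232 stayed within 1.5 times the reported one. The share of all genes called under each alternative is not given here. Space against Ground pups gave 0 in every fit tried. In Space against BDF1 replicates 1 to 3 the count of 1 became 0 without a filter on low counts, 0 with the replicate block, 3 with both sets in 1 fit with group plus set, 0 with group alone, 2 without the 3 libraries of highest Msh6, and 0 to 1 without 1 library. In Ground against BDF1 replicates 1 to 3 the count of 0 became 1 with DESeq2, 1 with the set fitted alone, 5 with group plus set, 3 with group alone, 2 without the 3 libraries, and 0 to 1 without 1 library. In Space against BDF1 replicates 4 to 6 the count of 5 became 17 with total counts, 2 without a filter, 3 with the replicate block, 1 with the set alone, 3 with group plus set, 0 with group alone, and 0 to 6 without 1 library. In Ground against BDF1 replicates 4 to 6 the count of 8 became 17 with total counts, 5 with the replicate block, 3 with the set alone, 5 with group plus set, 3 with group alone, 4 without the 3 libraries, and 4 to 9 without 1 library. Leaving out the 3 libraries was chosen after seeing the data and leaves 1 Ground library in replicates 4 to 6, assumed to vary like the other groups. For the difference between the sets, the count of 0 in Space pups became 1 with DESeq2, 1 without the 3 libraries, and 0 to 1 without 1 library. In Ground pups it became 1 with DESeq2, 7 with total counts, 1 without a filter, and 0 to 1 without 1 library. Fitting both sets together doubles the libraries per group, and the set alone uses fewer; the cause of the other moves was not tested. Of 472 recomputed values of called genes none reversed, 127 lost the call and 345 kept it.

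Numbers did not pair the libraries: deviations of same-numbered libraries correlated between -0.601 and 0.251, median -0.04, over 18 pairs, and the closest library of another group had the same number in 11 of 36 cases. The replicate block left counts in the other group comparisons at 0 and could not be fitted within BDF1 mice, whose sets share no number. It ended the calls of Rad51d in Space replicates 1 to 3 and of Parp1 and Ercc6 in Space replicates 4 to 6. In Ground replicates 4 to 6 it ended those of Xrcc4, Ercc2 and Ercc3. With 3 libraries per group a median SE of 0.206 on the log2 scale limits what can be called, and genes under about 1 CPM had wider intervals.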
